A study of Mus musculus with 3 samples.

Results

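miR-204 and miR-211 are a pair of miRNAs that carry the same seed, the short stretch at the 5′ end with which a miRNA recognises its target mRNAs. Both were taken from the deposited table by their mouse miRBase mature identifiers, MIMAT0000237 for miR-204 and MIMAT0000668 for miR-211, and they are 2 of the 602 miRNAs counted. The counts came from 3 samples of Müller glia (MG), the main glia of the retina, sorted by tdTomato fluorescence from adult mice. In these mice a tamoxifen-inducible Cre under the Rlbp1 promoter, which is active in MG, switches on the reporter. The wild type sample pooled undamaged Rlbp1-CreER:tdTomato mice (40 retinas). The light damage (LD) sample pooled mice of the same reporter type that had been crossed to an albino Swiss Webster strain with the light-sensitive Rpe65 variant, exposed to bright white light for 8 h and sorted 7 days later (44 retinas). The Dicer-cKO sample pooled Rlbp1-CreER:tdTomato:Dicerf/f mice (26 retinas), in which Cre also deletes Dicer, 1 month after the deletion. All mice received tamoxifen at 75 mg/kg, on 3 days in a row per the labels and on 4 per the study's methods, which give an age of 2 to 3 months. Each condition is 1 pooled sample, so there is no spread between replicates and no test was possible. The LD mice differ in strain from the others and the LD sample was measured for a later study, so strain, measurement series and light damage cannot be told apart.

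Dicer cuts a miRNA out of its hairpin precursor, and a mature miRNA then guides Argonaute proteins to mRNAs with matching sites, which are repressed. miR-204 is encoded in an intron of Trpm3, a cation channel gene, and is known from MG, the retinal pigment epithelium, the lens and the ciliary body. miR-211 is encoded in an intron of Trpm1, the channel gene that ON bipolar cells need for their light response and that pigment cells also express. A mature miRNA that MG made before Dicer was deleted can persist until it is degraded.

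The sequences show how little separates the pair, with the seed (bases 2 to 8) in capitals. They are given as RefSeq annotates them for mouse (GRCm38.p6), and both miRNAs matched an entry by name.
miR-204-5p: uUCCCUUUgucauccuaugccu
miR-211-5p: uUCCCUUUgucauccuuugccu
Both are 22 bases long and the same at 21 of them. The difference is A17U, counted from the 5′ end, with the miR-204 base first and the miR-211 base last. The seed UCCCUUU was found in 3 of the 1679 mature mouse miRNA names of the RefSeq table, and the remaining one, miR-7670-3p, has a different 3′ part. No other mature miRNA of the table had the length of miR-204-5p and 3 or fewer differences from it. Because the pair shares its seed, both miRNAs would pair with the same seed-matched sites, and the assay must tell them apart by the one base outside it. How well its probes do so was not tested.

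The precursors differ more than the mature forms, as the hairpins show, with the mature 5′ arm in capitals.
Mir204: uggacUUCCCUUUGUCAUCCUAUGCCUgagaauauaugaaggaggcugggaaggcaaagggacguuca
Mir211: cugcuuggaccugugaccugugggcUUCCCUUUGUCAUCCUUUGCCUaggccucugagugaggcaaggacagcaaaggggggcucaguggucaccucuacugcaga
The Mir204 hairpin of 68 bases lies at chr19:22750605-22750672 on the plus strand, within Trpm3. The Mir211 hairpin of 106 bases lies at chr7:64205806-64205911 on the plus strand, within Trpm1. Each host gene is annotated on the same strand as its miRNA. The 3′ arms, miR-204-3p and miR-211-3p, are both 21 bases long and differ at 7 positions when set side by side from the 5′ end, so that only the 5′ arms form a same-seed pair.

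miR-204 had the higher count of the pair in all 3 samples, and its normalized count was highest in the wild type sample, whereas that of miR-211 was highest in the Dicer-cKO sample. The values are counts of molecules after the authors' background subtraction and scaling to 4 housekeeping mRNAs, called normalized counts here. For miR-204 they were 285706 in wild type glia, 51963 after LD and 30438 in Dicer-cKO glia. The order of the 3 samples was therefore wild type, LD, Dicer-cKO, and neighbours in that order differed by more than counting error in the authors' scaling. For miR-211 the normalized counts were 335 in wild type glia, 323 after LD and 966 in Dicer-cKO glia. Only the Dicer-cKO sample stood apart here, since the wild type and LD counts did not differ beyond counting error. Counting errors are exact 95% intervals that leave out the variation between animals, sorts and measurements. They also take the scaling factor of each sample as exact, so they leave out the counting error of the housekeeping mRNAs. In the Dicer-cKO sample Gapdh, Rpl19 and B2m had 141, 159 and 114 counts before scaling.

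**Figure D1:**
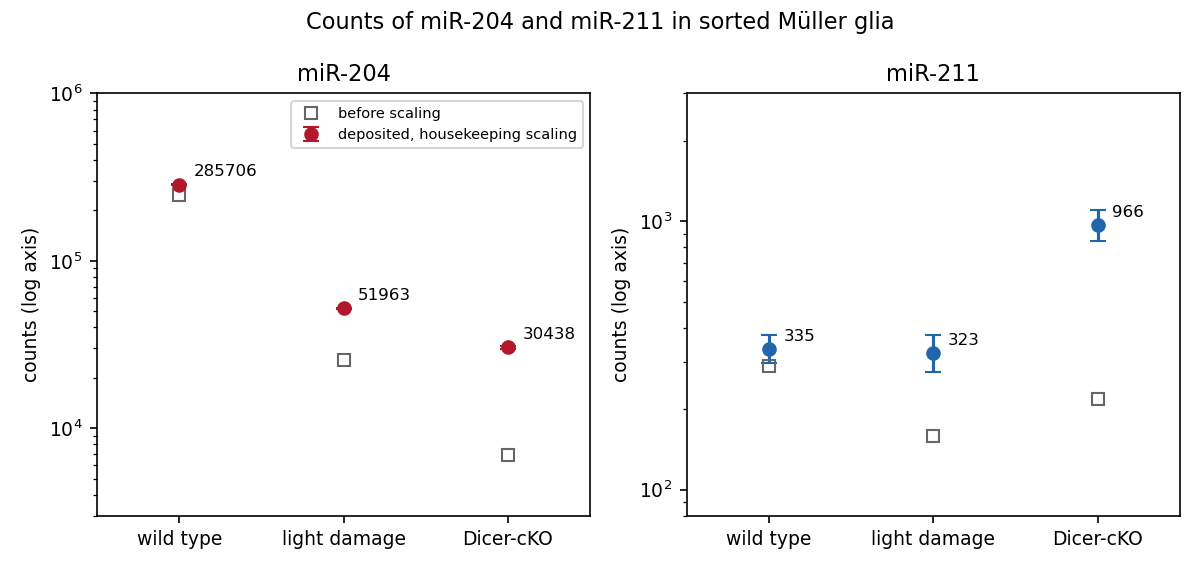
Counts of miR-204 (left) and miR-211 (right) in the 3 pooled samples, each on its own log axis, where filled points are normalized counts with exact 95% counting intervals and open squares are the counts before the housekeeping scaling. The normalized count of miR-204 falls from 285706 over 51963 to 30438, and that of miR-211 is 335, 323 and 966.

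After LD, miR-204 declined by 81.8% (95% interval 81.6 to 82.0), a log2 ratio of -2.46. Among the 104 miRNAs whose mean over the 3 samples was at least 100 normalized counts, 8 had a lower ratio of LD to wild type than miR-204 and 95 had a higher one. A decline of at least 2-fold was found for 39.4% of these 104 miRNAs, and their median log2 ratio was -0.70 with a pseudocount of 1. miR-204 therefore declined more than most, in a sample in which many miRNAs were lower. miR-211 changed by -3.58% (-21.1 to 17.4) after LD, an interval that holds no change. Of the same 104 miRNAs 69 had a lower ratio of LD to wild type than miR-211 and 34 had a higher one, and 18.3% were higher by at least 2-fold.

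After Dicer deletion, miR-204 declined by 89.3% (95% interval 89.1 to 89.6), a log2 ratio of -3.23, and 7 of the 104 miRNAs had a lower ratio. Here 60.6% of the 104 miRNAs were lower by at least 2-fold and the median log2 ratio was -1.36. These shares depend on the scaling. With the same miRNA total in each sample, 7.14% of the miRNAs above the same minimum were lower and 50.7% were higher by at least 2-fold after Dicer deletion, and scaled to Gapdh alone 12.7% were lower and 39.0% were higher after LD. miR-211 moved the other way. It was 2.88-fold (2.41 to 3.45) the wild type count, a log2 ratio of 1.53, which is a rise beyond counting error in the authors' scaling. A rise of at least 2-fold after Dicer deletion was found for 19.2% of the 104 miRNAs, and 14 of them had a higher ratio than miR-211. A level near wild type after LD, within 1.5-fold, together with a rise of at least 2-fold after Dicer deletion was found for 8 of the 104 miRNAs, miR-211 among them. A decline of at least 4-fold in both samples was found for 12, miR-204 among them. The minimum is a mean over the 3 samples, so these counts and shares include miRNAs that reached it only through samples where they were high. Among the 8, MIMAT0000616, with 66, 62 and 184 normalized counts in wild type, LD and Dicer-cKO glia, is such a case. Both members were above 100 normalized counts in all 3 samples.

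**Figure D2:**
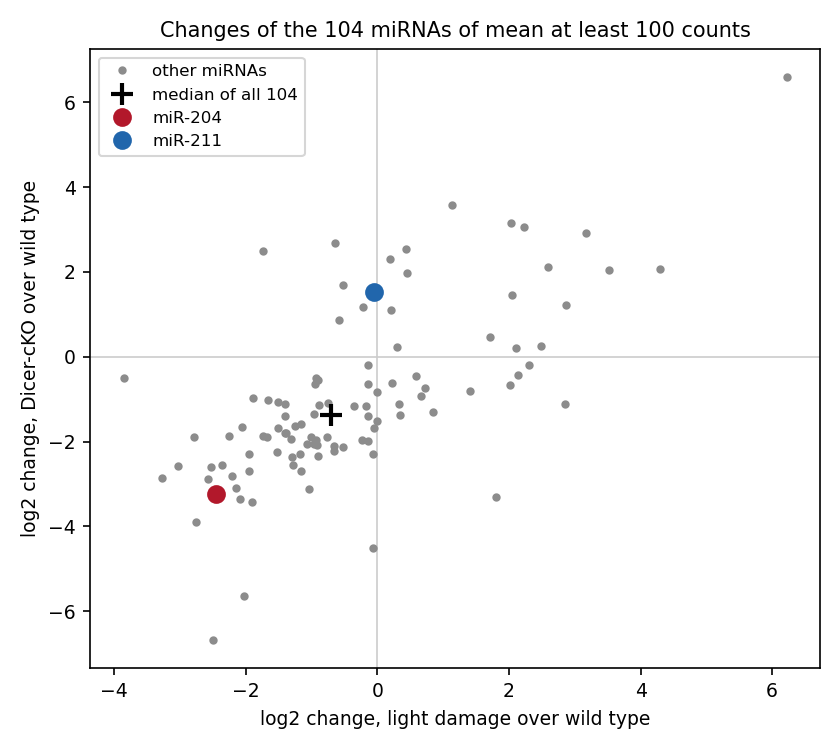
Log2 change (pseudocount 1) after light damage (x axis) and after Dicer deletion (y axis), both against the same wild type sample, for the 104 miRNAs of mean at least 100 normalized counts, with miR-204 in red, miR-211 in blue and a cross at the median of all 104 (-0.70 and -1.36). miR-204 lies below and to the left of the median, and miR-211 lies at -0.05 on the x axis and at 1.53 on the y axis.

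Between the LD and Dicer-cKO samples the pair also moved in opposite directions. The level of miR-204 after LD was 1.71-fold (95% interval 1.66 to 1.75) that in Dicer-cKO glia, near the middle of the 104 miRNAs, of which 53 had a lower and 50 a higher ratio. miR-211 in LD glia was at 0.334-fold (0.271 to 0.412) the Dicer-cKO level, and 7 of the 104 had a lower ratio. Of the 104 miRNAs 12.5% were at least 2-fold lower after LD than after Dicer deletion, and 41.3% were at least 2-fold higher. The direction was not the same under every scaling. miR-204 was lower after LD than after Dicer deletion with the same miRNA total, at a ratio of 0.713, and with Rpl19 as the only reference, at 0.943, and miR-211 was higher with the nmiR rows of the table, at 2.29.

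The scaling of the samples decides the direction of miR-211 in Dicer-cKO glia. The authors' scaling had multiplied the counts by 1.15 in the wild type sample, 2.04 in the LD sample and 4.42 in the Dicer-cKO sample. Before scaling, miR-211 had 290.1 counts in wild type glia, 159 after LD and 219 in Dicer-cKO glia. Thus the Dicer-cKO count was 0.753-fold (95% interval 0.629 to 0.901) that of wild type before scaling, and the rise appeared only after the scaling. Actb, the housekeeping mRNA with the highest counts, was at 0.275-fold the wild type count in the Dicer-cKO sample before scaling. Gapdh was at 0.203-fold, Rpl19 at 0.247-fold and B2m at 0.338-fold. The 5 highest ERCC control rows, which are not scaled, were at 1.18-fold to 1.39-fold. The next ERCC row, of 28.4 counts in the wild type sample, was at 2.38-fold. The decline of miR-204 was present before scaling too, with 247376 in wild type glia, 25532 after LD and 6886 in Dicer-cKO glia.

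Over 9 other scalings of the samples, miR-204 was below wild type in all 9 after LD, at ratios between 0.0911 and 0.467, and in all 9 after Dicer deletion, at ratios between 0.0196 and 0.438. miR-211 was above wild type after Dicer deletion in 7 of the 9, the highest ratio being 11.9 when the samples were set to the same miRNA total without the most abundant miRNA of the LD sample. It was below wild type in the other 2, which set the ERCC control rows or the nmiR rows (whose content no source used here gives) in place of the housekeeping mRNAs, at ratios of 0.531 and 0.551. After LD the direction of miR-211 was not settled, with 4 scalings below and 5 above wild type, at ratios between 0.483 and 2.48.

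**Figure D3:**
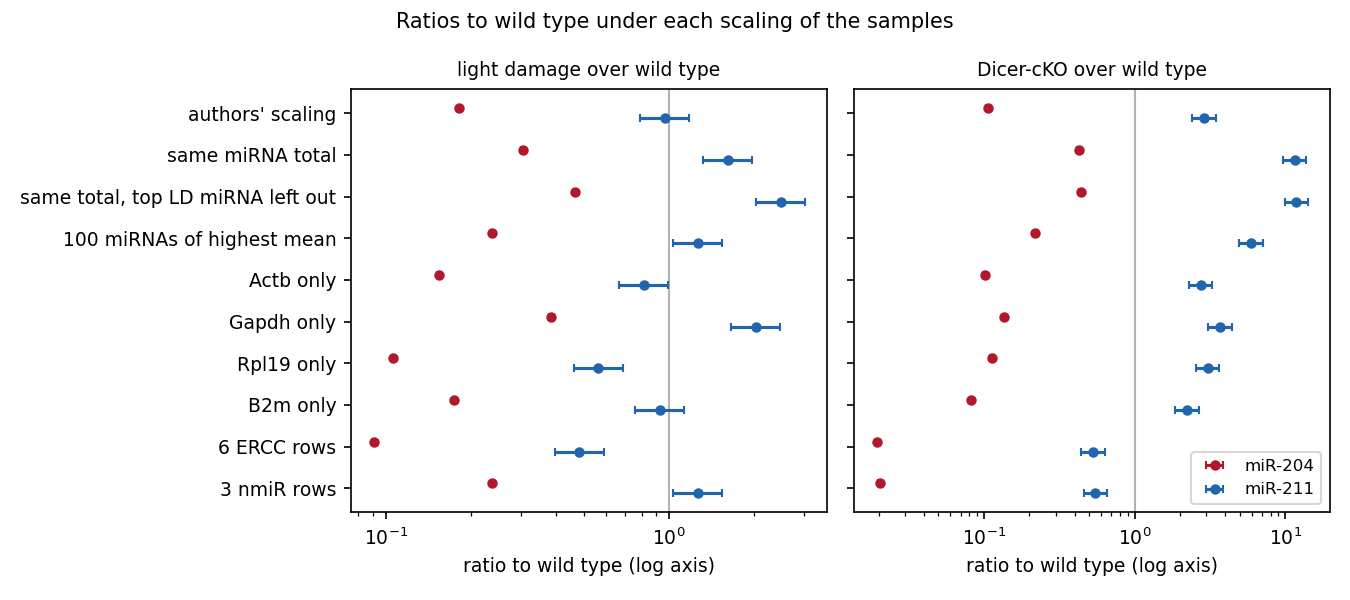
Ratio to wild type (log axis) of miR-204 in red and miR-211 in blue after light damage (left) and after Dicer deletion (right) under the authors' scaling and 9 others, with 95% counting intervals, which are narrower than the points for miR-204. miR-204 lies below 1 in every row, whereas miR-211 lies on both sides of 1 after light damage and below 1 after Dicer deletion with the ERCC or nmiR rows only.

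The ratio of the pair within a sample does not depend on the scaling, because the factor of a sample multiplies both. Since the assay may count the pair with unequal efficiency, the values within a sample are counts of the assay and not necessarily molecules in the cells. Per 1000 counts of miR-204 there were 1.17 counts of miR-211 (95% interval 1.04 to 1.32) in wild type glia, 6.22 (5.28 to 7.27) after LD and 31.7 (27.6 to 36.3) in Dicer-cKO glia. The 3 intervals did not overlap. The ratio was thus 5.30-fold (4.37 to 6.44) higher after LD and 27.1-fold (22.7 to 32.3) higher in Dicer-cKO glia than in wild type glia. In counts as the assay gives them, miR-204 made up most of the sum of the pair in each sample, with 99.9% in wild type glia, 99.4% after LD and 96.9% in Dicer-cKO glia. The sum of the pair was 286041 normalized counts in wild type glia, 52286 after LD and 31404 in Dicer-cKO glia, so the sum followed miR-204.

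**Figure D4:**
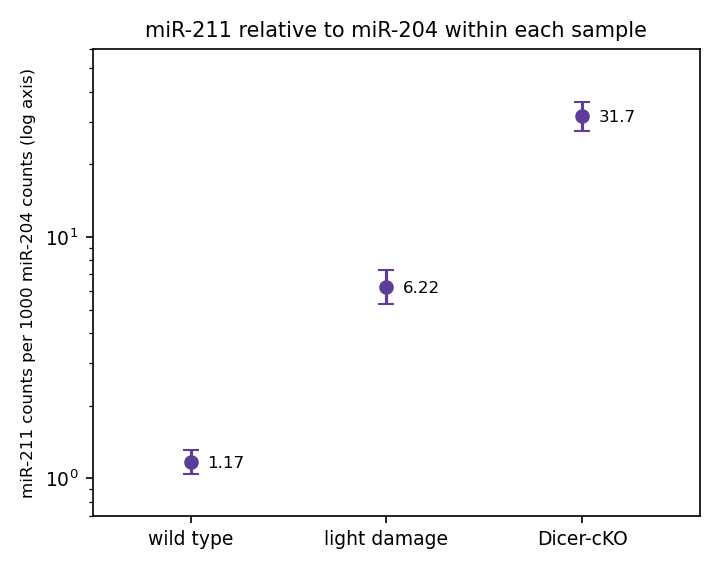
Counts of miR-211 per 1000 counts of miR-204 within each of the 3 pooled samples (log axis), with exact 95% counting intervals. The ratio is 1.17 in wild type glia, 6.22 after light damage and 31.7 in Dicer-cKO glia, and it is the same under every scaling of the samples.

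The share of miR-204 in the miRNA pool was highest in the wild type sample. miR-204 made up 36.4% (95% Clopper-Pearson interval 36.3 to 36.6) of all miRNA counts in wild type glia, 11.1% (10.96 to 11.2) after LD and 15.6% (15.2 to 15.9) in Dicer-cKO glia. It was the most abundant of the 602 miRNAs in wild type glia, 2.61-fold above the next, and again in Dicer-cKO glia, 1.67-fold above the next. After LD it came second, because another row counted as a miRNA, with 172827 normalized counts and 36.9% of the total, was 3.33-fold above it. Without that row in the totals, the share of miR-204 was 37.6% in wild type glia, 17.6% (17.4 to 17.8) after LD and 16.5% (16.1 to 16.8) in Dicer-cKO glia. The order of the LD and Dicer-cKO shares thus turned. The study reports an increase of miR-720 after LD and states that it is now regarded as a tRNA fragment. Whether that row is miR-720 could not be matched by name. miR-211 made up 0.0427% (0.0380 to 0.0479) of the counts in wild type glia, 0.0689% (0.0586 to 0.0805) after LD and 0.494% (0.431 to 0.564) in Dicer-cKO glia. Its rank was 64 in wild type glia, 54 after LD (tied with 1 other) and 31 in Dicer-cKO glia.

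**Figure D5:**
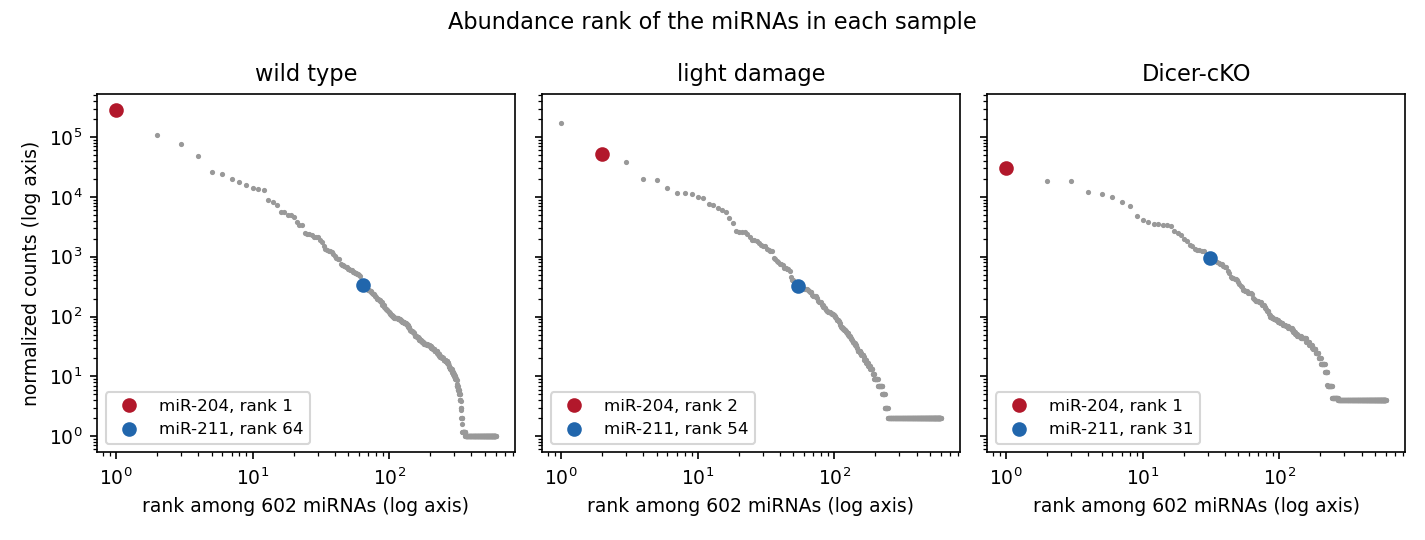
Normalized count (log axis) against rank (log axis) of the 602 miRNAs in each sample, in gray, with miR-204 in red and miR-211 in blue; the flat end of each curve is the lowest value of the sample. miR-204 holds rank 1, 2 and 1 in wild type, light damage and Dicer-cKO MG, and miR-211 holds rank 64, 54 and 31.

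In the authors' scaling the miRNA total fell in both samples, and miR-204 accounted for much of that fall. The normalized counts of all miRNAs summed to 783889 in wild type glia and to 468576 after LD, a fall of 40.2%. Of this net fall, 74.1% equals the fall of miR-204, and without miR-204 the total was 16.4% lower. The net fall is reduced by the rise of the most abundant miRNA of the LD sample, from 23904 to 172827 normalized counts. With this miRNA left out, the fall of miR-204 equals 50.4% of the fall after LD, and the remaining miRNAs were 48.6% lower. The Dicer-cKO total of 195642 was 75.0% lower than that of wild type. There, the fall of miR-204 equals 43.4% of the net fall, and the total without miR-204 was still 66.8% lower. Scaled to Gapdh alone, the LD total was 1.26-fold that of wild type, so that there was no fall to divide.

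The miRNAs with the pattern most like each member were found by the distance between their pairs of log2 ratios to wild type (pseudocount 1), over 3 samples and among the 104 miRNAs. The table gives identifiers only, and these miRNAs have no names in the sources used here. Closest to miR-204, at a distance of 0.34, was MIMAT0000135 with 5639 normalized counts in wild type glia, 1275 after LD and 661 in Dicer-cKO glia. MIMAT0009433 followed at 0.36 with 1304, 217 and 175 counts, and the next lay at 0.39. All 3 were far less abundant than miR-204. Closest to miR-211, at 0.07, was MIMAT0000616 with 66, 62 and 184 counts, which reached the minimum mean of 100 only through the Dicer-cKO sample. MIMAT0000144 followed at 0.39 with 118, 101 and 268 counts, and the next lay at 0.49.

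The study lists miR-204 among the miRNAs enriched in MG over retinal neurons, and it headed the wild type sample. miR-211 is known from other cells, and its normalized count was highest in the Dicer-cKO sample. Per the study's methods, the sort kept the cells of brightest tdTomato fluorescence, left out those of intermediate fluorescence and rechecked the purity of the sorted fraction. The part of RNA from other cells was not tested, because the other marker miRNAs of pigment cells, photoreceptors, bipolar cells, immune cells, blood and vessels could not be matched to rows of the table. The study reports that miR-124 increased both after LD and after Dicer deletion, and calls transfer from neurons in exosomes probable. Its row could not be matched by name here either. In pooled samples a larger share of other cells, more miR-211 per cell and the effect of the scaling, which sets the direction of miR-211 in the Dicer-cKO sample, cannot be told apart.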

How the data were processed

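Mature miRNAs of sorted MG were counted with the NanoString nCounter assay, which tags and counts molecules without amplification. The deposited table holds 626 rows (602 miRNAs, 4 housekeeping mRNAs, 14 ERCC rows and 6 nmiR rows) of 1 signal per sample, namely counts that the authors normalized with nSolver 4.0 against 4 housekeeping mRNAs, 8 negative controls and 6 positive controls, all samples together. The geometric mean of the housekeeping mRNAs is accordingly 1167 in each sample. No source used here gives the size of the subtracted background. No aligner or genome is involved.

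The factor of each sample (1.15, 2.04 and 4.42) was found from the steps between the values of the housekeeping mRNAs and of the nmiR rows, and the signal was divided by it to obtain counts before scaling, 678722 in wild type, 230232 in LD and 44258 in Dicer-cKO. Intervals of ratios and shares are exact 95% Clopper-Pearson intervals of these counts after subtraction, and those of single counts are exact Poisson intervals. The interval of a change in the ratio of the pair comes from the variance of the log counts. All cover the counting error of the miRNAs only and take the factor of each sample as exact. Ratios carry no pseudocount except where stated. Housekeeping symbols and sequences came from RefSeq tables (GRCm38.p6), which name miRNAs but do not pair them with miRBase identifiers, so miR-204 and miR-211 were identified by the given identifiers and no list of marker miRNAs of other cells was matched.

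The text names both members, the 3 miRNAs nearest to each in pattern (at most 2 by identifier), their neighbours in rank by count and the most abundant miRNA after LD. It also names miR-124 and miR-720 from the study's text, without values matched to them. The members, lists and tests were chosen with earlier results of these data known. The scalings by ERCC and nmiR rows were added after seeing the data. The software comprised scipy 1.17.1, numpy 2.4.6, pandas 2.3.3 and matplotlib 3.10.9 under Python 3.11.15.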

Additional observations from a re-analysis of the deposited data

How the results depend on the processing

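The scaling of the samples moved these results, and the cause of each change below was not tested. The spread between samples is unmeasured with 1 sample per condition. No paired analysis was possible because no condition has more than 1 sample. Each setting is given with the ratios of miR-204 and then of miR-211, in the order LD over wild type, Dicer-cKO over wild type and LD over Dicer-cKO. The same miRNA total gave 0.304, 0.427 and 0.713 for miR-204, the last a reversal, and 1.61, 11.6 and 0.140 for miR-211. The same total without the most abundant miRNA after LD gave 0.467, 0.438 and 1.07, and 2.48, 11.9 and 0.209. The 100 miRNAs of highest mean gave 0.238, 0.219 and 1.09, and 1.26, 5.93 and 0.213. Actb as the only reference gave 0.154, 0.101 and 1.52 for miR-204. For miR-211 it gave 0.815, 2.74 and 0.297, each within the counting interval of the authors' scaling. The interval of the 0.815, from 0.667 to 0.993, lay below 1, unlike that in the authors' scaling. Gapdh gave 0.383, 0.137 and 2.80, and 2.03, 3.70 and 0.548. Rpl19 gave 0.106, 0.113 and 0.943 for miR-204, the last a reversal, and 0.564, 3.05 and 0.185 for miR-211. B2m gave 0.175, 0.0824 and 2.12, and 0.927, 2.23 and 0.416. The 6 highest ERCC rows, chosen after seeing the data, gave 0.0911, 0.0196 and 4.64, and 0.483, 0.531 and 0.909, with the rise of miR-211 after Dicer deletion reversed. The 3 nmiR rows above 100, also chosen after seeing the data, gave 0.238, 0.0203 and 11.7, and 1.26, 0.551 and 2.29, with the last 2 reversed. Adding 20 counts before scaling moved none of the 6 ratios beyond counting error, and the ratio of miR-211 to miR-204 was then 5.58-fold higher after LD and 27.6-fold higher after Dicer deletion.

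The number of miRNAs lower by at least 2-fold, 41 (LD) and 63 (Dicer-cKO) of 104, was 20 and 11 of 150 with the same total without the most abundant miRNA after LD. Gapdh alone gave 15 of 118 after LD. After Dicer deletion it was 10 of 140 with the same miRNA total and 32 of 120 with the 100 miRNAs of highest mean. Other settings gave a larger share after LD, after Dicer deletion or after both. The 6 highest ERCC rows gave 60 (LD) and 73 (Dicer-cKO) of 83. The 3 nmiR rows gave 29 (LD) and 85 (Dicer-cKO) of 101, and Rpl19 alone gave 59 and 57 of 95. In the authors' scaling with a mean of at least 1000 counts, the number was 14 and 29 of 37 miRNAs. Of the pair, miR-211 has the wider counting intervals, since it rests on 290.1, 159 and 219 counts before scaling.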
